A study of Mus musculus with 6 samples.

Results

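Eph receptors and ephrins were examined in primary mouse dermal fibroblasts exposed to 5-aza-2'-deoxycytidine (decitabine), a nucleoside drug that dividing cells incorporate and that depletes DNA methyltransferases. The genes are 10 family members, Epha2, Epha3, Epha4, Epha5, Epha7, Ephb2, Ephb3, Ephb4, Efna5 and Efnb1. They were chosen by name with their treated-against-control values of these same arrays already known, so every change and every count of calls given for them describes that choice and supports nothing. A probe set belonged to a gene where the platform annotation gave that gene's symbol and no other. By this rule 9 of the 10 genes had probe sets, 25 among the 45037 on the array. No probe set carried the symbol of Ephb2 alone in the annotation used, so Ephb2 was not analysed here.

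In the treated group, 3 cultures were kept at 5 µM of drug for 96 hours, with fresh drug in medium every 24 hours, and then for 24 hours without drug. The control group was 3 untreated cultures. All 6 cultures were fibroblasts of passage 4, explanted from the dermis of B6 mice of 0 to 2 days of age and of mixed sex, and each culture was measured on 1 Affymetrix expression array. The design describes a separate explant for every biological replicate, so p-values measure the spread between cultures. Whether a treated and a control culture of the same number shared an explant is not stated.

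Eph receptors are the receptor tyrosine kinases that bind ephrins on neighbouring cells, and the pair signals in both directions across the contact. Class A receptors mainly bind ephrin-A ligands, which are tethered to the membrane by a glycosylphosphatidylinositol anchor. Class B receptors mainly bind ephrin-B ligands, which cross the membrane and have a cytoplasmic tail with a PDZ-binding end. In connective tissue and skin the system is known for repulsion and sorting of cells and for boundary formation, which work through the cytoskeleton and cell adhesion.

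The values are MAS5 signals, multiplied by 1 factor per array so that all arrays had a trimmed mean of 193.2, and called scaled signal below. The median signal of an array ranged from 51.4 to 60.6, and without detection calls a signal under that level could not be separated from background. A log2 change is treated minus control on the scale log2(scaled signal + 9.66), which understates changes of dim probe sets, and its standard error (SE) comes from the limma fit across all probe sets. A probe set was tested if it exceeded its array's median on at least 3 of the 6 arrays, and called at an adjusted p under 0.05. A gene is represented by its main probe set, that is, the brightest one tested (by mean log2 signal). Since a probe set high in 1 group alone could pass through that group, dim members that passed favour those that differ.

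Correlations of log2 signals between arrays lay from 0.972 to 0.974 within groups and from 0.863 to 0.883 across groups. For Actb, the control probe set near the 3' end divided by the one near the 5' end, which reflects RNA integrity, gave 1.14 to 1.18 on treated arrays and 1.26 to 1.28 on control arrays, and its part in the results was not tested. The same ratio for Gapdh overlapped between groups, at 0.747 to 0.792 on treated and 0.721 to 0.751 on control arrays. Of 12 fibroblast markers, all of which were tested, 10 were called lower and 0 higher. Their summed scaled signal was 26895 to 32922 on treated arrays and 57559 to 65749 on control arrays. Vim, at 11246 ± 911 in treated and 10235 ± 570 in control cultures (SD, n = 3), and Twist2 were the markers not called, so both groups held the fibroblast marker set while most of it was lower after treatment. In such bulk RNA, fewer cells of a type and less RNA per cell cannot be told apart. Of the markers of melanocytes, Schwann cells, neurons, pericytes and leukocytes, 16 were tested, 3 were called higher (the neuronal Tubb3, Des and Cd68) and 1 lower (Pmel), and none of these lists, nor those of keratinocytes and endothelium, summed to more than 632 on any array.

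Promoter sequences are given for Epha2, the member higher in treated cultures, for Epha3 and Ephb3, the members with the lowest changes, and for Epha5, whose groups overlapped, because the drug acts on cytosine methylation and CpG dinucleotides are where mammalian DNA is methylated. Each is the 250 bases before the RefSeq start of the gene in GRCm38.p6, written 5′ to 3′ on the gene's strand, with CpG dinucleotides in capitals. Which start the fibroblasts used, and whether any of these sites was methylated, was not measured on these arrays.

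Epha2 promoter: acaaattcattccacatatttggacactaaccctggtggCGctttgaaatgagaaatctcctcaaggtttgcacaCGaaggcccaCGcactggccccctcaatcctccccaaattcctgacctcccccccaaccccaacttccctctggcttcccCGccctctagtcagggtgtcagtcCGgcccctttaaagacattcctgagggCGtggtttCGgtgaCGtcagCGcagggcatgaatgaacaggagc

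Epha3 promoter: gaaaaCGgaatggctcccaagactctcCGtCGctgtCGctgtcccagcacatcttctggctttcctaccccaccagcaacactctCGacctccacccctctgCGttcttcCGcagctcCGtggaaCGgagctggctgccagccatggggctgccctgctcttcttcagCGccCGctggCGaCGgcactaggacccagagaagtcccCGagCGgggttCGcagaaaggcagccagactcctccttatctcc

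Ephb3 promoter: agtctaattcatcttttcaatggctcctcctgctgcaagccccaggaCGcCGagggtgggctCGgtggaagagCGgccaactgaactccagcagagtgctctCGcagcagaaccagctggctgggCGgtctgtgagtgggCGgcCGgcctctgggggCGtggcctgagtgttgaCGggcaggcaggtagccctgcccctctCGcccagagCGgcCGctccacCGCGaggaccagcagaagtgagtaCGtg

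Epha5 promoter: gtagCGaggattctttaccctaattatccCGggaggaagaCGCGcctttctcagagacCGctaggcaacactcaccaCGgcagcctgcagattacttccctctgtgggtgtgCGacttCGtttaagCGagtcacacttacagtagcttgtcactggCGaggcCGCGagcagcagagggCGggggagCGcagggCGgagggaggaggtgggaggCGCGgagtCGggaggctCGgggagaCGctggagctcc

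The window of Epha2 lies at chr4:141300971-141301220 on the plus strand and holds 9 CpG. That of Epha3 lies at chr16:63864176-63864425 on the minus strand and holds 16 CpG, the same number as that of Ephb3 at chr16:21204545-21204794 on the plus strand. The window of Epha5 at chr5:84417383-84417632 on the minus strand holds 20 CpG. All 10 members had a window, and Epha7 had a pair of them, which overlap. Their 11 windows held 9 to 32 CpG with a median of 16, and all 11 lay above the median of 6 CpG over the 32851 windows of the RefSeq table. Epha2 had the fewest and Efna5 the most.

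The GC box, searched as GGGCGG on both strands, occurred in 8 of the 11 member windows and in 32.7% of all windows, and it overlaps the CpG count because it contains CG. The CCAAT box, searched as CCAAT on both strands, occurred in 6 of 11 and in 33.8% of all windows. The TATA box, searched as TATAAA on both strands, occurred in 0 of 11 and in 12.4%, and the E-box CACGTG, which also contains CG, in 0 of 11 and in 6.02%. These matches describe the letters of the windows only. Epha2 and Epha3, at opposite ends of the measured changes, both had more CpG than the median window.

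**Figure D1:**
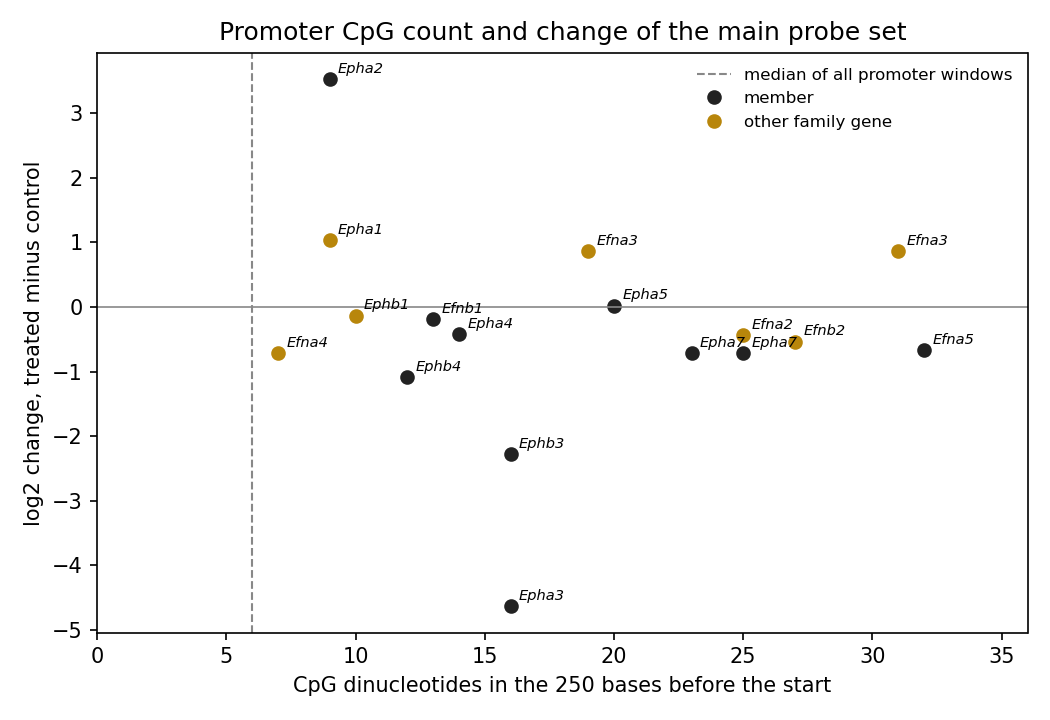
Each point is a promoter window of a tested Eph receptor or ephrin gene, with its number of CpG dinucleotides in 250 bases on the horizontal axis and the log2 change of the main probe set, treated minus control, on the vertical axis. Genes with several windows have several points, the dashed line is the median of 6 CpG over all windows, and Epha2 with 9 CpG stands at the top while Epha3 and Ephb3 with 16 stand lowest.

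Among the class A receptors Epha2 and Epha3 lay at opposite ends. Epha2 binds ephrin-A ligands and is a receptor best known from epithelia and from migrating and tumour cells. Its only probe set (1421151_a_at, whose suffix marks probes shared by transcripts of the gene) had scaled signals of 596, 662 and 478 on treated arrays 1 to 3, against 68.0, 53.9 and 16.7 on control arrays 1 to 3. The groups did not overlap, and the lowest treated array was far above the highest control array. Means were 579 ± 93.2 in treated and 46.2 ± 26.5 in control cultures (SD, n = 3), which is 12.5 times as high in treated cultures and a log2 change of 3.52 ± 0.35 (SE). In its arrays the probe set ranked between the 87.7th and 90.9th percentile in treated and between the 26.6th and 55.9th in control cultures. Of all genes tested, 0.271% had a larger log2 change. Control arrays 2 and 3 lay under their medians, so the ratio is not measured exactly, and with a pseudocount 4 times larger the log2 change was 2.91.

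Because Epha2 is abundant in epidermis, keratinocyte markers stand beside it. Of 7 such markers on the array, 2 passed the filter and 0 were called in either direction. Their summed scaled signal was 245 to 302 on treated arrays and 205 to 293 on control arrays, and none was at 0. The basal keratin Krt5 had 90.1 ± 15.2 in treated and 71.8 ± 39.7 in control cultures (SD, n = 3), and the suprabasal Krt10 had 70.3 ± 13.6 in treated and 70.9 ± 11.2 in control cultures, both mostly just above the array medians. Krt14 had 42.6 ± 7.37 in treated and 44.2 ± 6.61 in control cultures (SD, n = 3), below the array medians, and Krt1 and Krt15 were dimmer still. Also below the medians and not tested, Cdh1 had 24.9 ± 5.93 in treated and 16.8 ± 1.70 in control cultures. Trp63, likewise, had 31.1 ± 8.10 in treated and 42.8 ± 4.30 in control cultures. Groups did not overlap for Cdh1, higher in treated cultures, or for Trp63 and Krt1, lower there. The part of keratinocytes in the signal of Epha2 was not tested.

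Epha3, a receptor expressed in embryonic mesenchyme and binding ephrin-A5 with high affinity, was the member with the lowest change. At the main probe set 1455426_at the scaled signal was 39.9, 19.1 and 27.5 on treated arrays and 959, 971 and 843 on control arrays. Every treated array was below its array's median, and every control array ranked above the 92.5th percentile. The mean was 28.8 ± 10.4 in treated and 924 ± 71.0 in control cultures (SD, n = 3), a ratio of control over treated of 32.0 and a log2 change of -4.63 ± 0.19 (SE). Only 0.0820% of genes tested had a lower one.

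The 3 other probe sets of Epha3 pointed the same way. Their log2 changes were -4.70 ± 0.30 (1425575_at), -3.95 ± 0.27 (1425574_at) and -2.78 ± 0.29 (1426057_a_at, SE). The brightest of these had 42.5, 14.7 and 11.5 on treated arrays and 852, 739 and 726 on control arrays. The dimmest had 6.99, 17.4 and 9.41 on treated arrays and 151, 117 and 126 on control arrays. All treated signals of Epha3 lay under the array medians, so the sizes of these changes depend on the pseudocount. For the same reason each Epha3 probe set passed the filter through the control arrays alone. With a pseudocount 4 times larger the change at the main probe set was -3.84, and with one 4 times smaller it was -4.94.

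**Figure D2:**
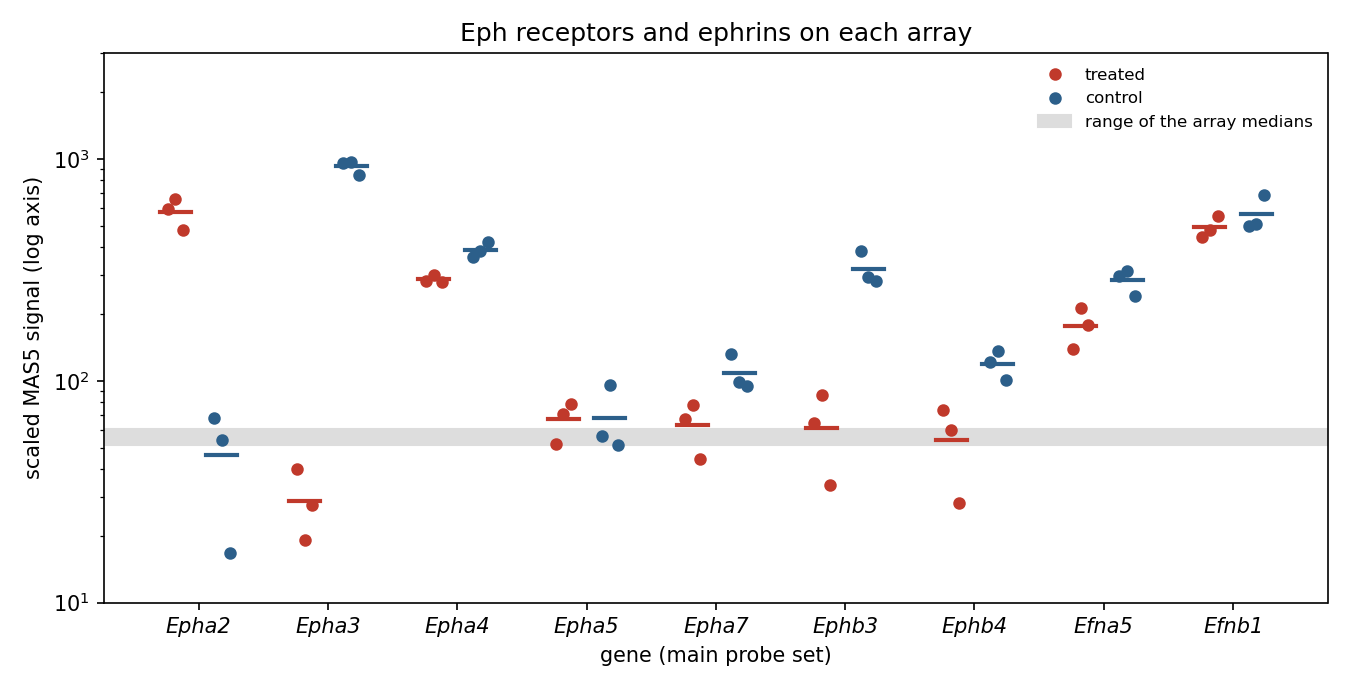
Points are the scaled MAS5 signals (log axis) of each member's main probe set on the 3 treated arrays (left of each pair, red) and the 3 control arrays (right, blue), horizontal bars are group means, and the grey band is the range of the array medians, 51.4 to 60.6. Epha2 stands higher in treated cultures, Epha5 and Efnb1 overlap between groups, and the other 6 members stand lower in treated cultures.

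Epha4, a receptor that binds both ephrin classes and is known from axon guidance and limb patterning, was moderately lower. Its main probe set 1421928_at had 281, 300.1 and 279 on treated arrays and 361, 383 and 421 on control arrays. The groups did not overlap, and the treated arrays lay within a narrower range than the control arrays. The log2 change was -0.42 ± 0.10 (SE). The other 3 tested probe sets had larger decreases, -0.56 ± 0.17 (1421929_at), -0.98 ± 0.16 (1429021_at) and -0.96 ± 0.21 (1439757_s_at, whose suffix marks probes that can match several transcripts). At 1429021_at the signal was 159, 126 and 163 on treated arrays and 269, 273 and 374 on control arrays. The fifth probe set, 1456863_at, did not pass the filter and stayed at or below 11.1 on all arrays.

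Epha7, a class A receptor of the nervous system that also has truncated isoforms lacking the kinase, was lower at all 3 tested probe sets, by differing amounts. The main one, 1443485_at, had 67.1, 78.1 and 44.6 on treated arrays and 133, 98.9 and 94.3 on control arrays, a log2 change of -0.71 ± 0.24 (SE). At 1427528_a_at the signal was 63.2, 23.1 and 13.5 on treated arrays and 92.6, 86.4 and 93.6 on control arrays (-1.40 ± 0.39). Treated array 1 stood well above the other treated arrays at that probe set, but not at 1451991_at, where treated arrays had 2.07, 11.4 and 13.7 and control arrays 61.4, 61.9 and 77.4 (-2.08 ± 0.40). The groups did not overlap at any of these 3 probe sets, and 1451991_at passed the filter through the control arrays alone. The fourth probe set, 1452380_at, was not tested and its groups overlapped, at 9.97 to 20.4 in treated and 14.2 to 29.9 in control cultures.

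Epha5, a mainly neuronal receptor, showed no separation of the groups. Only 1420557_at of its 4 probe sets passed the filter, with 52.1, 71.1 and 78.8 on treated arrays and 56.6, 95.3 and 51.1 on control arrays, close to the array medians. Its log2 change was 0.02 ± 0.27 (SE), and leaving out 1 array moved it between -0.13 and 0.26. The 3 probe sets that were not tested stayed at or below 19.7 on every array.

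Ephb3 and Ephb4, the class B receptors with probe sets, were both lower after treatment. Ephb3, a receptor for ephrin-B ligands known from palate and gut boundaries, had 64.2, 86.4 and 33.9 at 1451550_at on treated arrays and 384, 294 and 282 on control arrays. The groups did not overlap, and treated array 3 was the lowest. The mean was 61.5 ± 26.4 in treated and 320 ± 56.0 in control cultures (SD, n = 3), a ratio of control over treated of 5.20 and a log2 change of -2.27 ± 0.27 (SE).

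Ephb4, the receptor for ephrin-B2 known best from veins, had 73.4, 59.8 and 28.2 at 1449845_a_at on treated arrays and 121, 136 and 101 on control arrays. The groups did not overlap, treated array 3 was again the lowest, and the log2 change was -1.09 ± 0.29 (SE). Without treated array 3 the change was -0.75. Each class B receptor was read by 1 probe set, so no second probe set stands beside these values. Endothelial markers were mostly dim: of 8, 5 were tested, 2 were called higher (Esam and Cdh5) and 1 lower (Tek). That is 40% and 20%, beside 19.5% and 21.6% of all genes tested. Esam and Cdh5 lay under the medians of all control arrays, and Tek under those of all treated arrays. Each of these called markers thus passed the filter through 1 group alone. The summed signal of the 8 endothelial markers was 457 to 539.7 on treated arrays and 344 to 428 on control arrays. Esam had 108 ± 19.5 in treated and 21.0 ± 9.60 in control cultures (SD, n = 3). Cdh5 had 67.2 ± 6.57 in treated and 34.5 ± 12.2 in control cultures, and Tek 44.7 ± 12.8 in treated and 82.6 ± 11.7 in control cultures. No endothelial marker was at 0, and Tie1 was the dimmest at 2.31 ± 0.24 in treated and 1.61 ± 0.23 in control cultures (SD, n = 3). The part of endothelial cells in the values of Ephb4 was not tested.

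Of the ligands, Efna5 was lower and Efnb1 overlapped between groups. Efna5 encodes ephrin-A5, a ligand of Epha3 and other class A receptors. At 1436866_at it had 139, 213 and 178 on treated arrays and 297, 314 and 241 on control arrays. The highest treated array stayed below the lowest control array, and the log2 change was -0.67 ± 0.17 (SE). Its other probe set, 1421796_a_at, was below the array medians on all 6 arrays and overlapped between groups.

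Efnb1 encodes ephrin-B1, a ligand of class B receptors whose loss in mice disturbs the craniofacial skeleton. Its main probe set 1418286_a_at had 444, 478 and 553 on treated arrays and 497, 509 and 689 on control arrays, a log2 change of -0.19 ± 0.14 (SE). The other probe sets gave -0.47 ± 0.18 (1418285_at) and -0.08 ± 0.12 (1451591_a_at), and the groups overlapped at all 3. Its signal ranked between the 86.8th and 90.9th percentile on all 6 arrays, so this ligand was well above the array medians with and without the drug.

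Counted by main probe set, 9 members were tested, 6 were called lower and 1 higher. Among the 12194 genes tested, 21.6% were called lower and 19.5% higher. Of the 25 probe sets of the members, 19 were tested, 14 were called lower, 1 higher and 4 neither, beside 20.3% lower and 18.4% higher among all probe sets tested. Groups did not overlap for 7 of the 9 members, beside 52.5% of all genes tested. Nothing is read from these counts, because the members were chosen on this contrast. The fibroblast markers above moved the same way as the 6 members called lower, and their part in those values was not tested. The 6 class A members had a median log2 change of -0.54 and a range from -4.63 to 3.52, and the 3 class B members a median of -1.09 and a range from -2.27 to -0.19, beside a median of 0.00 over all genes tested. The classes were not tested against each other, and their ranges overlap.

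The call of Epha7 was kept in 7 of 14 alternative settings. It was lost with unscaled signals, without the filter, and on leaving out treated array 1 or 3 or any control array. Ephb4 lost its call without control array 2, and Epha4 too lost its call with unscaled signals. Taken as the median over all tested probe sets, the log2 change was -1.40 for Epha7 and -0.76 for Epha4. The calls of Epha2, Epha3, Ephb3 and Efna5 were kept in all 14. As the members were chosen on this contrast, a kept call describes that choice and supports nothing. The settings that left out an array also kept the tested probe sets. Treated array 3 was the lowest treated array for Epha2, Epha4, Epha7, Ephb3 and Ephb4, but not for Epha3, Epha5, Efna5 or Efnb1.

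**Figure D3:**
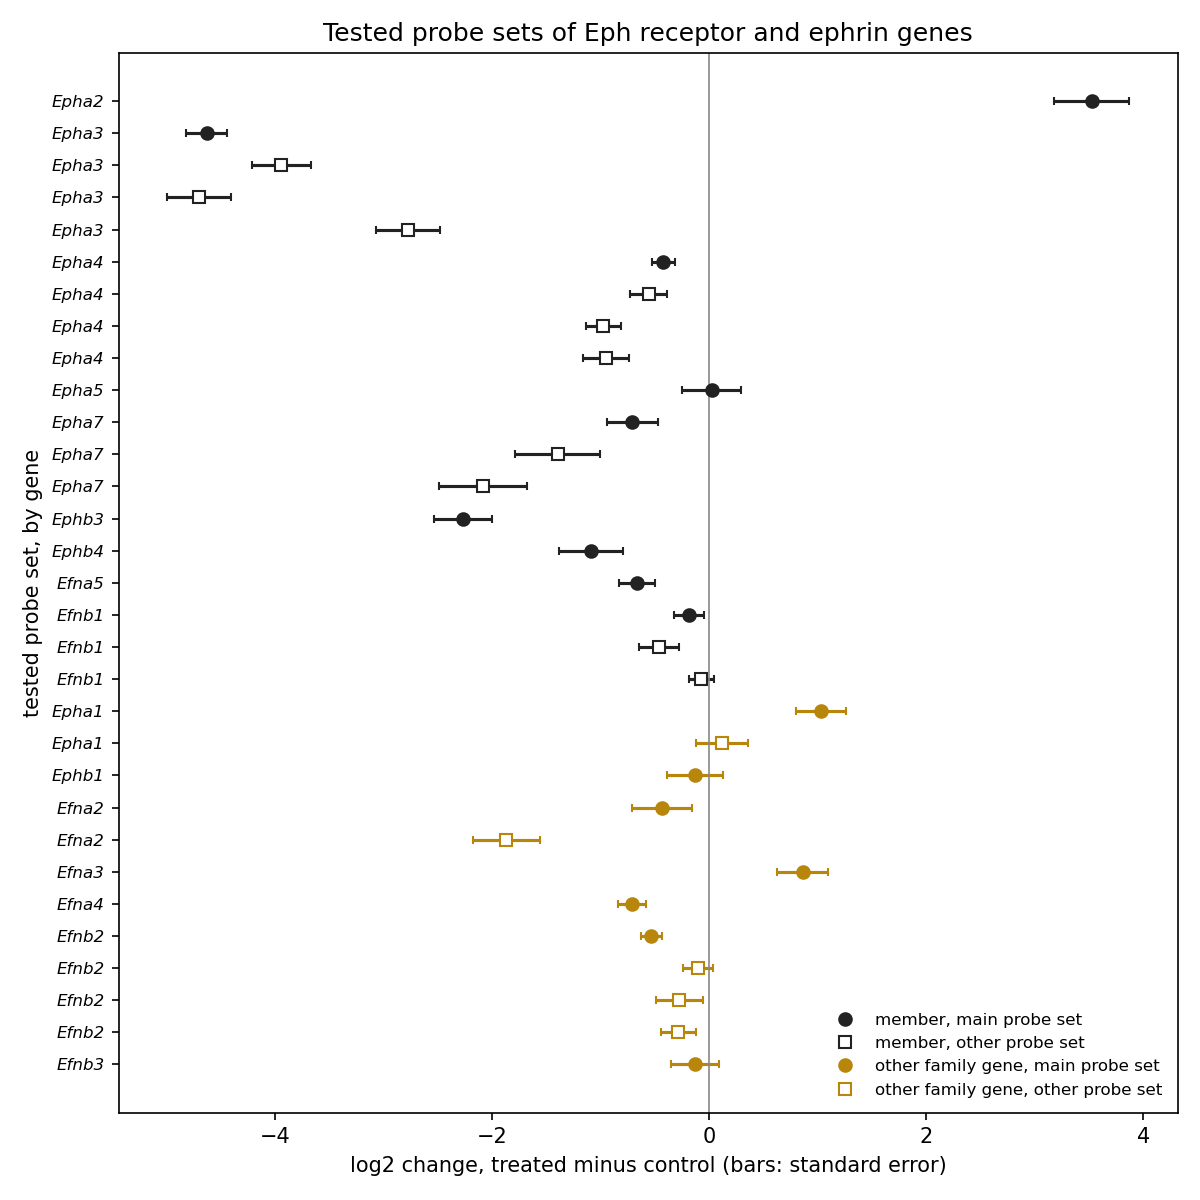
Each row is a tested probe set of an Eph receptor or ephrin gene, placed by its log2 change (treated minus control, horizontal axis) with its standard error as a bar. Filled circles are main probe sets and open squares the others, black for the members and ochre for the 7 other tested family genes. The 4 probe sets of Epha3 lie between -4.70 and -2.78, and Epha2 at 3.52 is the farthest to the right.

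The family genes outside the chosen 10 were Epha1, Epha6, Epha8, Epha10, Ephb1, Ephb6, Efna1, Efna2, Efna3, Efna4, Efnb2 and Efnb3, all of them on the array. Of these 12, 7 were tested, 2 were called higher and 2 lower, that is 28.6% in each direction, on a background of 19.5% higher and 21.6% lower. P-values for them are from limma with Benjamini-Hochberg adjustment across every tested probe set. The 5 that were not tested were Epha6, Epha8, Epha10, Ephb6 and Efna1, whose main probe sets stayed at or below 50.2 on every array.

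Efna4 and Efnb2 fell. Efna4, an ephrin-A ligand, had 129, 157 and 162 on treated arrays and 250.3, 263 and 237 on control arrays, a log2 change of -0.71 ± 0.13 (SE, adjusted p = 0.00199). It was lower on 3 of 3 treated arrays, and was called in all 13 alternative settings that give a p. Efnb2, the ligand of Ephb4 in arteries, had 389, 463 and 420.1 on treated arrays and 631, 583 and 641 on control arrays at 1419639_at, with a change of -0.54 ± 0.10 (SE, adjusted p = 0.00201) and no overlap of the groups. Its other 3 probe sets had log2 changes of -0.11 to -0.29 and were not called, with adjusted p-values of 0.194 to 0.593. With unscaled signals the main probe set of Efnb2 lost its call (adjusted p = 0.0644, in a range from 0.00182 to 0.0644 over 13 alternatives).

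Epha1 and Efna3 were called higher, at low levels. Epha1, a class A receptor of epithelia, had 95.2, 85.3 and 83.6 on treated arrays and 47.6, 36.9 and 31.1 on control arrays at 1432400_at (log2 change 1.03 ± 0.23, SE). Its groups did not overlap there. Every control array lay below its array's median, so this probe set passed the filter through the treated arrays alone and is given without a p-value. Its call, counted above, was kept without a filter. A second tested probe set of Epha1 had a log2 change of 0.12 ± 0.24 (adjusted p = 0.741), so the call rests on 1 of 2 tested probe sets. The third, 1422917_at, was not tested and had 15.0, 55.9 and 44.3 on treated arrays and 3.37, 8.31 and 6.62 on control arrays. Efna3, an ephrin-A ligand, had 76.9, 100.3 and 105 on treated arrays and 59.0, 36.5 and 47.6 on control arrays (0.86 ± 0.24, adjusted p = 0.0167). It was higher on 3 of 3 treated arrays than on any control array. Its other probe set was not tested, and the groups overlapped there. Its call was lost without treated array 2 (adjusted p = 0.0574), without treated array 3 (0.0658) and with unscaled signals (0.0931), in a range from 0.0144 to 0.0931 over 13 alternatives.

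Ephb1, Efnb3 and Efna2 did not pass the test at their main probe sets. The log2 change was -0.13 ± 0.26 (SE, adjusted p = 0.730) for Ephb1, a class B receptor, and -0.13 ± 0.22 (adjusted p = 0.688) for Efnb3, an ephrin-B ligand known from midline axon guidance. Efna2, an ephrin-A ligand, had -0.44 ± 0.28 (adjusted p = 0.251) at its main probe set 1417521_at. A dimmer probe set, 1444606_at, had 30.4, 37.0 and 12.8 on treated arrays and 139, 114 and 103 on control arrays. Its treated signals all lay under the array medians, so it passed the filter through the control arrays alone and is given without a test.

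The proteins through which Eph receptors and ephrins signal were followed as a list of 61 genes, of which those in 5 roles are described. Of all 61 genes, 57 were on the array and 49 were tested. Of the 49, 12 rose and 12 fell, or 24.5% in each direction, against 19.5% and 21.6% of all genes tested. The median log2 change was -0.06. These shares are close to the background, so the list as a whole does not stand out, and no gene of it had probe sets called in opposite directions among the 31 with several tested.

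Src family and Abl kinases take part in signalling at Eph receptors, and Src family kinases phosphorylate ephrin-B tails. Of 5 tested, 2 rose and 2 fell, or 40% in each direction, beside 19.5% higher and 21.6% lower among all genes tested. Nothing is read from shares of 5 genes. Src had 313 ± 42.4 in treated and 184 ± 19.0 in control cultures (SD, n = 3; log2 change 0.73, adjusted p = 0.00204). Abl2 had 431 ± 3.59 in treated and 293 ± 25.5 in control cultures (0.55, adjusted p = 0.00216). With unscaled signals Src and Abl2 lost their calls (adjusted p = 0.0594 and 0.202, the highest of 13 alternatives for each, with lowest values of 0.00115 and 0.00151). Yes1 fell to 199 ± 26.1 in treated cultures, against 402 ± 51.5 in control cultures (-0.98, adjusted p = 0.000404), and its second probe set gave 0.27 without a call. Fyn fell by 0.39 on the log2 scale (adjusted p = 0.0223) and lost its call without treated array 3 or control array 1 or 2 (adjusted p = 0.0744, 0.0747 and 0.0773). Over 13 alternatives its adjusted p ranged from 0.00461 to 0.184. Both tested probe sets of Abl2 were called, against 1 of 2 for Src and for Fyn, whose others had log2 changes of 0.25 and -0.10.

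Adaptors bind the phosphorylated receptor. Of 15 tested, 4 rose and 3 fell, or 26.7% and 20%, beside 19.5% and 21.6% of all genes tested. Bcar1, the p130Cas scaffold of adhesion signalling, rose to 1246 ± 101 in treated cultures, against 553 ± 15.8 in control cultures (SD, n = 3; log2 change 1.16, adjusted p = 9.50e-06). Grb2, which links receptors to Ras, rose by 0.74 (adjusted p = 0.00224). Grb10, an adaptor of receptor tyrosine kinases and an imprinted gene, fell to 1906 ± 94.4 in treated cultures, against 4332 ± 55.9 in control cultures (-1.18, adjusted p = 2.23e-06). Pik3r1, the regulatory subunit of phosphoinositide 3-kinase, fell to 323 ± 24.2 in treated cultures, against 696 ± 26.0 in control cultures (-1.09, adjusted p = 2.09e-05). Sla, Nck2 and Crk were also called, with log2 changes of 1.45, -0.66 (adjusted p = 0.00786) and 0.32 (adjusted p = 0.0145). All control signals of Sla lay under the array medians, so it passed the filter through the treated arrays alone and is given without a p-value. It is counted among the 4 that rose, and its call was kept without a filter. Crk lost its call without treated array 2 or control array 1 or 2 (adjusted p = 0.0530, 0.0508 and 0.0567) and with unscaled signals, in a range from 0.00587 to 0.485 over 13 alternatives. Every tested probe set was called in the same direction for Bcar1, Grb2, Grb10 and Pik3r1, against 1 of 2 for Nck2 and 2 of 5 for Crk.

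Of the phosphatases on the list, 2 of 5 tested rose and 2 fell, or 40% in each direction, beside 19.5% and 21.6% of all genes tested. As for the kinases, nothing is read from shares of 5 genes. Ptpn13, which dephosphorylates ephrin-B tails, fell to 90.3 ± 4.19 in treated cultures, against 222 ± 20.3 in control cultures (SD, n = 3; log2 change -1.21, adjusted p = 0.000106). Ptprf, a receptor phosphatase, fell by 0.47 (adjusted p = 0.0143). Ptpn11 and Acp1, the low-molecular-weight phosphatase, rose by 0.46 (adjusted p = 0.00198) and 0.39 (adjusted p = 0.00913). With unscaled signals Ptprf, Ptpn11 and Acp1 lost their calls (adjusted p = 0.137, 0.233 and 0.341, the highest of 13 alternatives for each, with lowest values of 0.0102, 0.00169 and 0.00855). Of their tested probe sets, 2 of 3 were called for Ptprf, 1 of 3 for Ptpn11 and 2 of 6 for Acp1, while Ptpn13 had 1.

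The last roles described are proteins that bind ephrin-B tails and the proteases that shed ephrins or receptors. Among 7 tail partners tested, 0 rose and 2 fell (28.6%), beside 19.5% higher and 21.6% lower among all genes tested. Rgs3, whose PDZ form couples ephrin-B to G-protein signalling, fell to 241 ± 15.5 in treated cultures, against 385 ± 18.0 in control cultures (SD, n = 3; log2 change -0.66, adjusted p = 0.000817), at 2 of its 3 tested probe sets, while the third had a log2 change of 0.15. Pard6a, a polarity protein, fell by 0.80 (adjusted p = 0.00355). Grip1 was called higher without control array 2 (adjusted p = 0.0224) and with the replicate number as a block (0.0492), in a range from 0.0224 to 0.457 over 13 alternatives. Grip2 was called lower without treated array 2 (0.00112) and with unscaled signals (0.00347), in a range from 0.00112 to 0.268. Sdcbp, another tail partner, was called lower with quantile normalization alone (0.00128), in a range from 0.00128 to 0.462. Of 5 proteases tested 1 fell (20%) and 0 rose, beside the same 21.6% lower and 19.5% higher. Mmp14, which is known to cut EPHA2 in human cells, fell to 2279 ± 98.3 in treated cultures, against 4065 ± 462 in control cultures (-0.83, adjusted p = 0.0001005), at all 3 of its probe sets. Adam10, the main sheddase of ephrins, had 2574 ± 128 in treated and 2540 ± 363 in control cultures (0.03, adjusted p = 0.862).

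**Figure D4:**
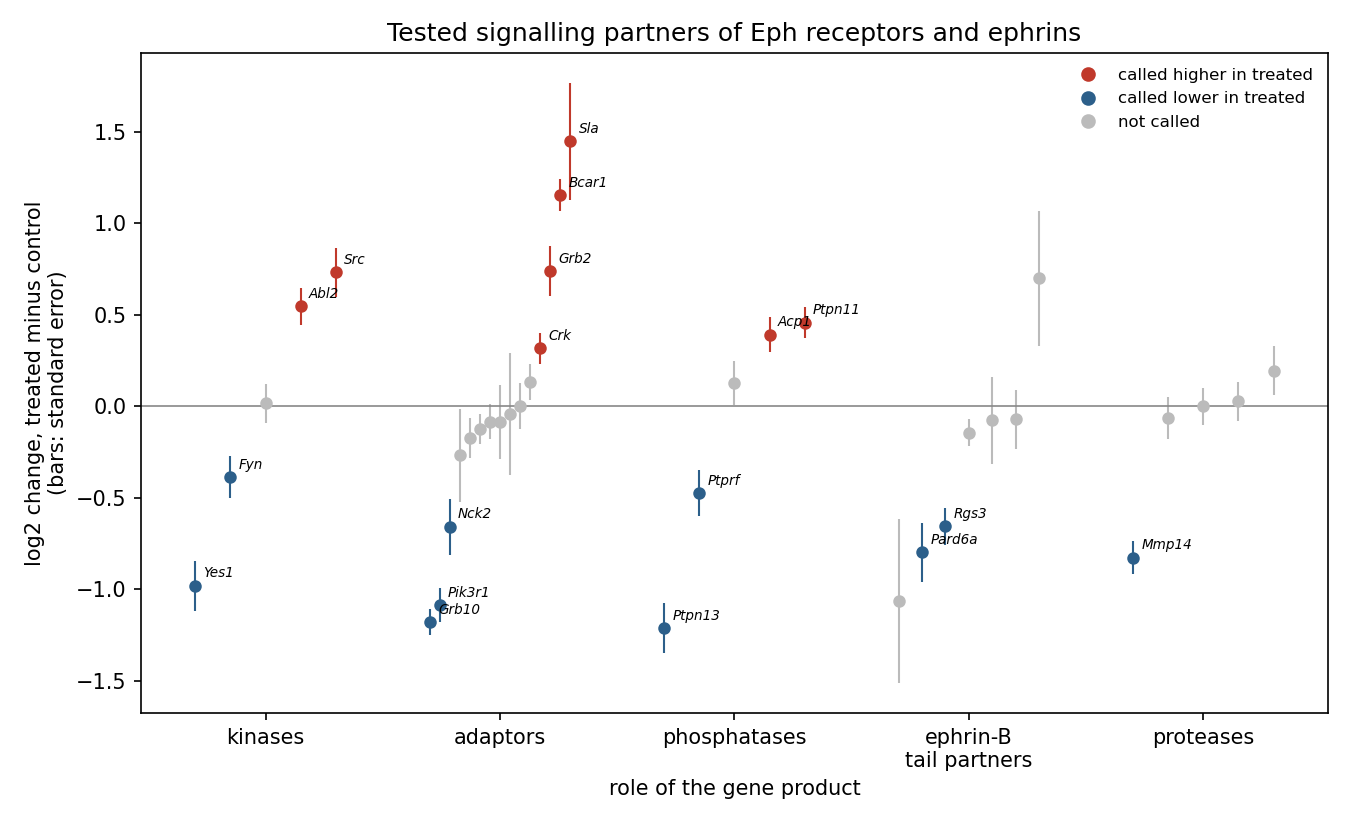
Points are the 37 tested signalling partners of the 5 roles described, grouped by role, with the log2 change (treated minus control) on the vertical axis and its standard error as a bar. Red marks the 8 called higher, blue the 10 called lower and grey the others, and called genes of both directions occur among kinases, adaptors and phosphatases.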

How the data were processed

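Each of the 6 cultures, 3 treated and 3 control, was measured on 1 array. The deposited values are signal intensities, 1 per probe set and array, made by the authors with MAS5 per the submitters' processing notes. The MAS5 version and target intensity are not given in these sources, and no detection calls were used. The 64 control probe sets were left out, and each array was multiplied by 1 factor to a common 2% trimmed mean of 193.2. Signals became log2(signal + 9.66), the pseudocount being 0.05 of that mean. The filter kept 23388 of 45037 probe sets. Groups, taken from the labels, were the sole term of a linear model in limma 3.58.1 (R 4.3.3; lmFit, then eBayes with trend), tested two-sided with Benjamini-Hochberg adjustment over all tested probe sets. The fit was tested on simulated data. The number of arrays limits the precision.

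Platform annotation gave 1 gene for 34945 probe sets, several for 932 and none for 9160; those with several were left unnamed. Promoter windows are from RefSeq in GRCm38.p6 and were matched by symbol. Efnb3 had no entry. The members and all lists were chosen with earlier results of these data known. The text names all 10 members, all other family genes and, of the signalling partners, up to 4 per role, those with the smallest p among the called. Nck2, Sla, Crk, Adam10, Grip1, Grip2 and Sdcbp lie outside that rule and were named after their values were seen. A further role of the partner list, counted in its totals, is not reported here. Alternatives were other scalings, pseudocounts and filters, all probe sets of a gene, the replicate number as a block, and leaving out each array with the tested probe sets kept.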

Additional observations from a re-analysis of the deposited data

How the results depend on the processing

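With unscaled signals 1977 of 23388 probe sets were called higher and 3042 lower, against 4297 and 4743 with scaling; among the other family genes 1 rose and 1 fell, and 5 signalling partners rose. Leaving out 1 array gave 1 to 2 other family genes that rose, with 1 remaining without treated replicate 2 or 3; the counts over all members and over all signalling partners stayed within 1.5 times of theirs when 1 array was left out, and the counts by role were not recomputed. No member that was called changed sign in any of 14 settings; the uncalled Epha5 moved between -0.13 and 0.26. Without 1 array, 4 to 6 members were called lower. The cause of these shifts was not tested.

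Deviations of same-numbered treated and control arrays from their group means correlated at 0.186, 0.172 and 0.0720, and those of differing number at -0.149 to -0.0218. By these deviations every array thus correlated best, among the arrays of the other group, with the array of its own number. The labels do not say whether a number marks a shared explant, so the main fit did not take the numbers as pairs. With the replicate block, 4575 probe sets were called higher and 4966 lower, and the calls of the members were as without it. For the signalling partners the counts stayed at 12 higher and 12 lower, with 1 gene called higher exchanged for another.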
